A study of Mus musculus with 10 samples.

Results

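The genes described here are the enzymes that write and remove cytosine methylation in DNA, together with their closest partners. The list held 9 genes: the DNA methyltransferases Dnmt1, Dnmt3a and Dnmt3b, the catalytically inactive cofactor Dnmt3l, the TET dioxygenases Tet1, Tet2 and Tet3, the hemimethylated DNA binder Uhrf1 and the thymine DNA glycosylase Tdg. A member was measured by every probe set that the platform annotation assigns to that single gene symbol. This gave 20 of the 45101 probe sets of the array, for 8 of the 9 genes: 5 for Dnmt3a, 4 for Tet1, 3 for Dnmt1, 2 each for Dnmt3b, Tet2 and Uhrf1, and 1 each for Dnmt3l and Tet3. The 3 probe sets that carry the name Tdg are also assigned to its pseudogenes Tdg-ps and Tdg-ps2, so no value is given for Tdg.

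Transcripts were measured on 10 Affymetrix arrays of NG4, an embryonic stem cell line of the mouse. All cells received an siRNA as they were plated and spent 48 h in medium with retinoic acid, an inducer of differentiation, so the control cells were differentiating too. The 5 groups of 2 arrays each were siNonTarget, an siRNA without a target, and siRNAs against Sox17 (an endoderm transcription factor), Fbxw7 (a substrate receptor of an SCF ubiquitin ligase), Socs3 (which limits STAT3 signalling downstream of LIF) and Rnf31 (a ubiquitin ligase that makes linear chains). No array of cells before retinoic acid or without siRNA was part of these comparisons. Whether the arrays of a group stand for different cultures is not in the labels, so every p-value is set against a spread between arrays that may be technical.

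Dnmt3a and Dnmt3b set new methylation marks, and Dnmt3l, which has no catalytic activity, stimulates both of them. Dnmt1 copies existing marks after replication, and Uhrf1 brings it to hemimethylated sites. TET enzymes oxidise methylcytosine, which leads to its loss through replication or through excision by Tdg and base excision repair. In mouse embryonic stem cells the balance of these activities shifts between the naive state, where DNA methylation is low, and the primed state, where Dnmt3a and Dnmt3b are abundant.

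The promoters of Dnmt3b and Dnmt3l, the members that passed the test in a comparison with the control, are shown because they differ in CG content, the sequence these enzymes methylate. The windows are those of RefSeq on GRCm38.p6, from 250 bases before to 50 bases after an annotated start, on the plus strand, written 5′ to 3′. In the first pair, capitals mark CG dinucleotides. In the last window, capitals mark the match to the STAT motif TTCNNNGAA.
Dnmt3b at chr2:153649199-153649498: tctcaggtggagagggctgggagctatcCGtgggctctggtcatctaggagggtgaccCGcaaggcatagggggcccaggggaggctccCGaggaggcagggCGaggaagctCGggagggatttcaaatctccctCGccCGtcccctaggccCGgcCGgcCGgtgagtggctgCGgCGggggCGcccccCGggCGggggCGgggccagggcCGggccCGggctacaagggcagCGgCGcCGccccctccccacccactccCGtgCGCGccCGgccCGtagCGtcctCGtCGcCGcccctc
Dnmt3l first start at chr10:78042037-78042336: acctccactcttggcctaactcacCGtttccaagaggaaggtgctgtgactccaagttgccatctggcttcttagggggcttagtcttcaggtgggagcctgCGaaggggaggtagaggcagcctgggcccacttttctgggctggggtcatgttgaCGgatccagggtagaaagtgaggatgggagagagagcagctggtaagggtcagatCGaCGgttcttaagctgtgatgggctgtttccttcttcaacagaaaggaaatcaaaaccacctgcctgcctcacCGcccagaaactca
Dnmt3l second start at chr10:78049592-78049891: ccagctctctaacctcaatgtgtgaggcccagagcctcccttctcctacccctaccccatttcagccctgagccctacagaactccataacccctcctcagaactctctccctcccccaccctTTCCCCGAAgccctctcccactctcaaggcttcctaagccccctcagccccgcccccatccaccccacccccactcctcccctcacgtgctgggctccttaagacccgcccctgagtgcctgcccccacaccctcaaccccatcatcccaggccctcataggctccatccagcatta

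The Dnmt3b window held 30 CG dinucleotides, and the 3 Dnmt3l windows held 6, 4 and 3. Over all 32851 windows of the same length the median was 7 and the upper quartile 20. The Dnmt3b window was thus above the upper quartile, and the first Dnmt3l window was near the median, with the other 2 below it. Among the other members, the Tet2 window held 57 CG dinucleotides and the 3 Dnmt3a windows held 46, 47 and 18. Windows of the other members ranged from 2 for the third Dnmt1 start to 33, reached by 1 start each of Dnmt1 and Uhrf1.

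A few short motifs were searched on both strands in the 16 windows of the 9 genes. The STAT motif TTCNNNGAA, a palindrome in its fixed letters, occurred in 8.30% of all windows and in 2 member windows, the second of Dnmt3l, where the match begins at base 124 of the window, and the one of Tdg. The letters TTTCCCGC, a form of the E2F site, occurred in 1.07% of all windows and in none of the members', and TTTGGCGC, another form, in 0.514% and in 1 window of Dnmt1. The nuclear receptor letters AGGTCA occurred in 16.3% of all windows and in 3 member windows, of Dnmt3a, Tet1 and Uhrf1. The SP1 letters GGGCGG occurred in 35.7% of all windows and in 12 member windows of 8 genes. None of these letter strings contains another. A match describes the letters of a window and is not evidence of binding.

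Some features of the arrays bear on the member values. The embryonic stem cell label was checked with 10 markers, and none of the 10 lay under the array median on every array. Their summed intensity was 18350 to 19554 in siNonTarget and 32879 to 35446 in the arrays labelled siSocs3. It was 22875 to 25545 in siSox17, 20270 to 22673 in siFbxw7 and 18214 to 25107 in siRnf31. The 4 transcripts aimed at did not differ past the threshold in the arrays named for them. The Socs3 transcript differed by 0.44 ± 0.24 on the log2 scale in siSocs3 (limma, adjusted p = 0.281), and the group is called by its label for that reason. The log2 difference between the 3′ and 5′ actin probe sets, a sign of RNA or amplification quality, was 0.50 in siNonTarget replicate 1 and 0.60 in siFbxw7 replicate 1, against 0.21 to 0.29 in the other 8 arrays. These arrays correlated better with each other (r = 0.997 across genes) than with their own replicates (r = 0.994 for both). The closest array was also in another group for 5 other arrays. Among these were siNonTarget replicate 2 and siFbxw7 replicate 2, whose own replicates are the arrays of high actin difference. The part of RNA quality in these correlations was not tested. The siSocs3 results for Dnmt3b, Dnmt3l and Dnmt3a and some counts are given with and without these arrays. Comparisons of the other members, and of the other groups with siNonTarget, are mainly given with both arrays included.

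The member values fell into a simple pattern across the arrays. Dnmt3b and Dnmt3l were higher in siSocs3 than in the control, and Dnmt1 stayed within a narrow range on all 10 arrays. Several Dnmt3a probe sets were lower than in the control in siSocs3, and also in siSox17 and siRnf31, where none passed. Values below are log2 intensities of the probe set with the highest mean, which stands for its gene, unless another probe set is named. Levels of different probe sets are not compared, since probes differ in brightness. In such bulk samples, fewer cells expressing a gene and less RNA per cell cannot be told apart.

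**Figure D1:**
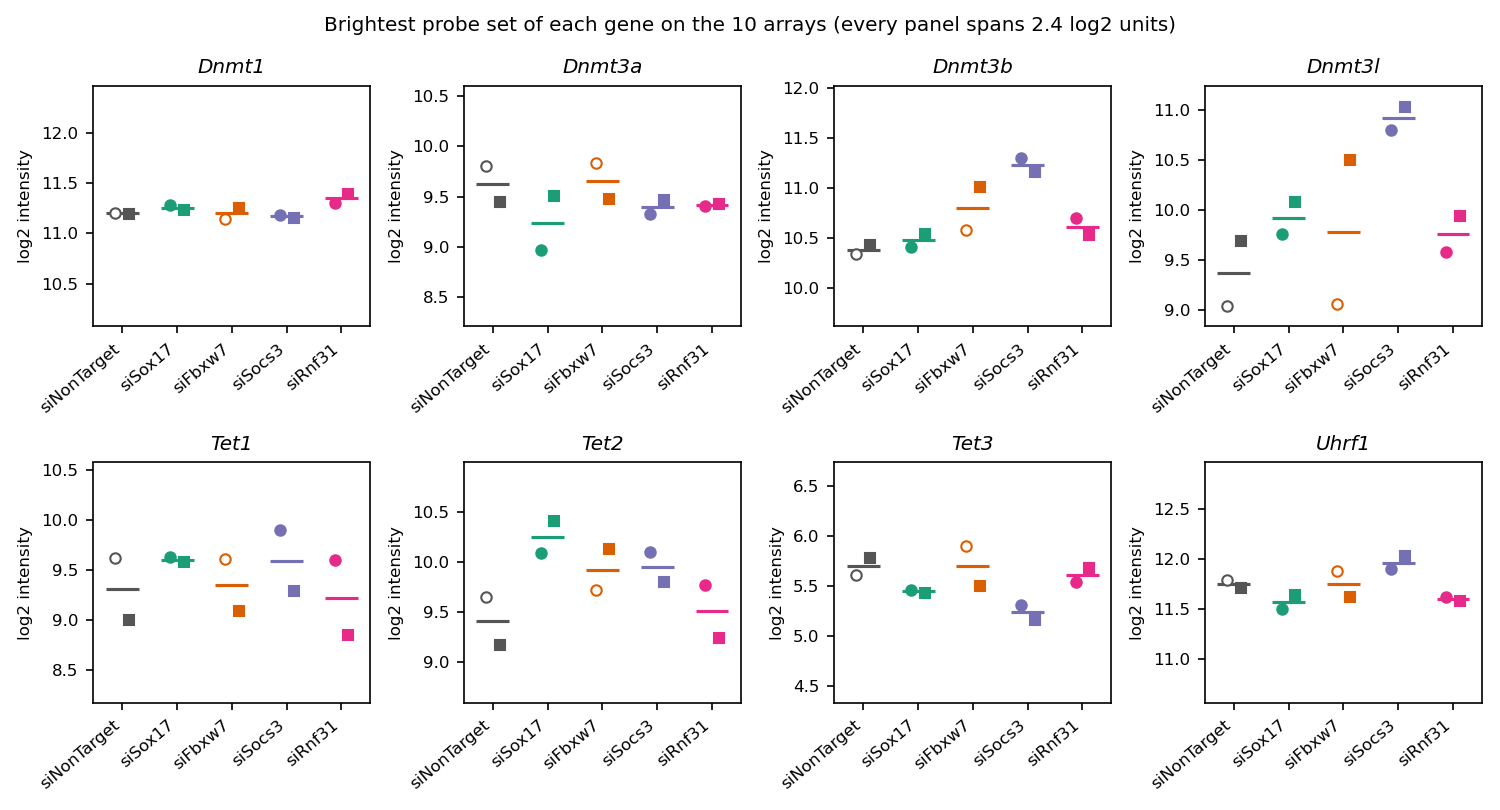
Log2 intensity of the 8 measured members on each of the 10 arrays, 1 panel per gene, with the groups along the horizontal axis. Circles are replicate 1, squares replicate 2, bars group means and open symbols the 2 arrays with a high actin difference. Both siSocs3 arrays of Dnmt3b lie above the other 8 arrays, at 11.16 and 11.30, as do both of Dnmt3l, at 10.80 and 11.04.

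Dnmt3b is the main de novo methyltransferase of the early embryo. Its log2 intensity was 10.34 and 10.43 on the siNonTarget arrays and 11.30 and 11.16 on the siSocs3 arrays. On the other arrays it was 10.41 and 10.54 in siSox17, 10.58 and 11.01 in siFbxw7, and 10.70 and 10.53 in siRnf31. Both siSocs3 arrays were above all others, with siFbxw7 replicate 2 the nearest. Dnmt3b rose 1.79-fold in siSocs3 over siNonTarget, by 0.84 ± 0.15 (SE) on the log2 scale (limma, adjusted p = 0.0129, n = 2 arrays per group). This was past the threshold of 0.05 after Benjamini-Hochberg adjustment over all 18194 genes. The second Dnmt3b probe set, 1418351_a_at, was at 9.52 and 9.40 in siNonTarget and at 10.17 and 10.19 in siSocs3. When every probe set was tested alone, both passed, with differences of 0.84 ± 0.15 (limma, adjusted p = 0.0209) and 0.72 ± 0.15 (limma, adjusted p = 0.0331). In that fit 1418351_a_at lost its call without either array of siNonTarget, siSox17 or siSocs3, and without both arrays of high actin difference. The first, 1449052_a_at, lost its call there without either array of siNonTarget or siSocs3. Without the 2 arrays of high actin difference, a single control array was left. The gene's difference was then 0.80, and that of the second probe set was 0.78. Leaving out siNonTarget replicate 1 (0.80) or siSocs3 replicate 1 (0.77) ended the gene's call.

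Dnmt3b was also compared directly between the groups with a targeting siRNA. It was higher in siSocs3 than in siSox17 by 0.75 ± 0.15 (limma, adjusted p = 0.0345), the only member of 8 that passed there, against 2.61% of all genes. The siSocs3 arrays were also above those of siRnf31 and siFbxw7, with differences of 0.62 ± 0.15 from siRnf31 (limma, adjusted p = 0.0716) and 0.43 ± 0.15 from siFbxw7 (limma, adjusted p = 0.157), neither of which passed. In these last comparisons 0 of 8 members passed by limma, against 2.13% of all genes for siRnf31, and 3.51% for siFbxw7. An unadjusted p under 0.05 was found for 4 of 8 members against siRnf31, for 3 of 8 against siFbxw7 and for 3 of 8 against siSox17, beside 16.9%, 18.5% and 17.4% of all genes. The call against siSox17 did not hold without siSox17 replicate 1 or 2 (limma, adjusted p = 0.221 and 0.125) or without siSocs3 replicate 1 or 2 (0.277 and 0.0975). In the order of the group means, siSocs3 at 11.23, siFbxw7 at 10.80, siRnf31 at 10.61, siSox17 at 10.48 and siNonTarget at 10.38, no neighbouring pair differed past the threshold. Over all members, siSocs3 lay above siSox17 without overlap for 3 of 8 and below for 2 of 8, as did 28.6% and 25.6% of all genes. Against siFbxw7 these counts were 3 and 2 (25.1% and 24.5% of genes), and against siRnf31 4 and 2 (27.3% and 24.1%). In the 3 direct comparisons without siSocs3, limma called 0 of 8 members and 0% of all genes, and the single member with an unadjusted p under 0.05 was Tet2, between siSox17 and siRnf31, where 7.68% of all genes had one. Between siFbxw7 and siSox17 or siRnf31, 5.59% and 5.19% of genes had one.

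Dnmt3l, the cofactor of Dnmt3a and Dnmt3b, was the member with the widest range over the arrays, 1.99 on the log2 scale. Its log2 intensity was 9.05 and 9.70 in siNonTarget and 10.80 and 11.04 in siSocs3. On the other arrays it was 9.76 and 10.08 in siSox17, 9.07 and 10.50 in siFbxw7, and 9.59 and 9.94 in siRnf31. Both siSocs3 arrays were again above the other 8, and siFbxw7 replicate 2 was again the nearest. Dnmt3l rose 2.92-fold in siSocs3, by 1.54 ± 0.40 (limma, adjusted p = 0.0459). The siFbxw7 arrays lay 1.43 apart, so the mean of that group describes neither array.

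The Dnmt3l values moved with the actin difference. The siNonTarget and siFbxw7 arrays with the high difference were the lowest of all 10, at 9.05 and 9.07, against 9.59 to 11.04 on the other 8. Of all genes, 9.34% were below the other 8 arrays on both of them in the same way. Both are numbered replicate 1, and Dnmt3l was lower on replicate 1 than on replicate 2 in all 5 groups, by 0.24 to 1.43 and by 0.60 on average, an order that 4.48% of all genes showed. The part of either in the Dnmt3l result was not tested further. Without both arrays, which leaves a single control array, the rise in siSocs3 was 1.22, in the same direction. The call did not survive the removal of most single arrays: siNonTarget replicate 1 (1.22, adjusted p = 0.206), siNonTarget replicate 2 (1.87, 0.0575), siSocs3 replicate 1 (1.66, 0.197), siSocs3 replicate 2 (1.43, 0.168), either siSox17 array (1.54, 0.0719) or either siRnf31 array (1.54, 0.0627), all by limma. The mean of siSocs3, 10.92, was set directly against those of siSox17 (9.92), siFbxw7 (9.78) and siRnf31 (9.76), each difference with an SE of 0.40, and none passed (limma, adjusted p = 0.244, 0.173 and 0.191).

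Dnmt3a, the other de novo methyltransferase, behaved differently on its probe sets. Its brightest, 1423064_at, was at 9.80 and 9.44 in siNonTarget and at 9.33 and 9.47 in siSocs3, and these groups overlapped. The difference was -0.23 ± 0.20 (limma, adjusted p = 0.508). Probe set 1423063_at was at 9.26 and 8.56 in siNonTarget, 8.29 and 8.49 in siSox17, 9.14 and 8.37 in siFbxw7, 7.68 and 7.71 in siSocs3, and 8.32 and 8.34 in siRnf31. Probe set 1460324_at was at 7.58 and 6.90 in siNonTarget, 6.25 and 6.70 in siSox17, 7.46 and 6.50 in siFbxw7, 5.74 and 5.99 in siSocs3, and 6.38 and 6.69 in siRnf31. On both, the siSocs3 arrays were the lowest of the 10. In the fit of every probe set they fell in siSocs3 by 1.21 ± 0.27 (limma, adjusted p = 0.0382) and by 1.37 ± 0.33 (limma, adjusted p = 0.0496).

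The other Dnmt3a probe sets did not pass in siSocs3. Probe set 1423065_at, at 8.28 and 7.65 in siNonTarget and 7.19 and 6.97 in siSocs3, differed by -0.88 ± 0.26 (limma, adjusted p = 0.0894). Probe set 1423066_at, at 9.62 and 9.16 against 8.99 and 9.04, differed by -0.37 ± 0.23 (limma, adjusted p = 0.388). All 5 differences were negative, but they ranged from -0.23 to -1.37, and no annotation used here says which Dnmt3a transcripts each probe set detects. When the 5 were averaged, Dnmt3a differed by -0.81 in siSocs3 and did not pass (limma, adjusted p = 0.0662). The means of all 5 were also below the control in siSox17 and siRnf31, without a call. For 1423065_at the differences were -0.83 ± 0.26 and -0.57 ± 0.26 (limma, adjusted p = 0.266 and 0.848). For 1423063_at they were -0.52 and -0.58, and for 1460324_at -0.77 and -0.70. Those of 1423066_at were -0.38 and -0.33, and those of 1423064_at -0.39 and -0.21.

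**Figure D2:**
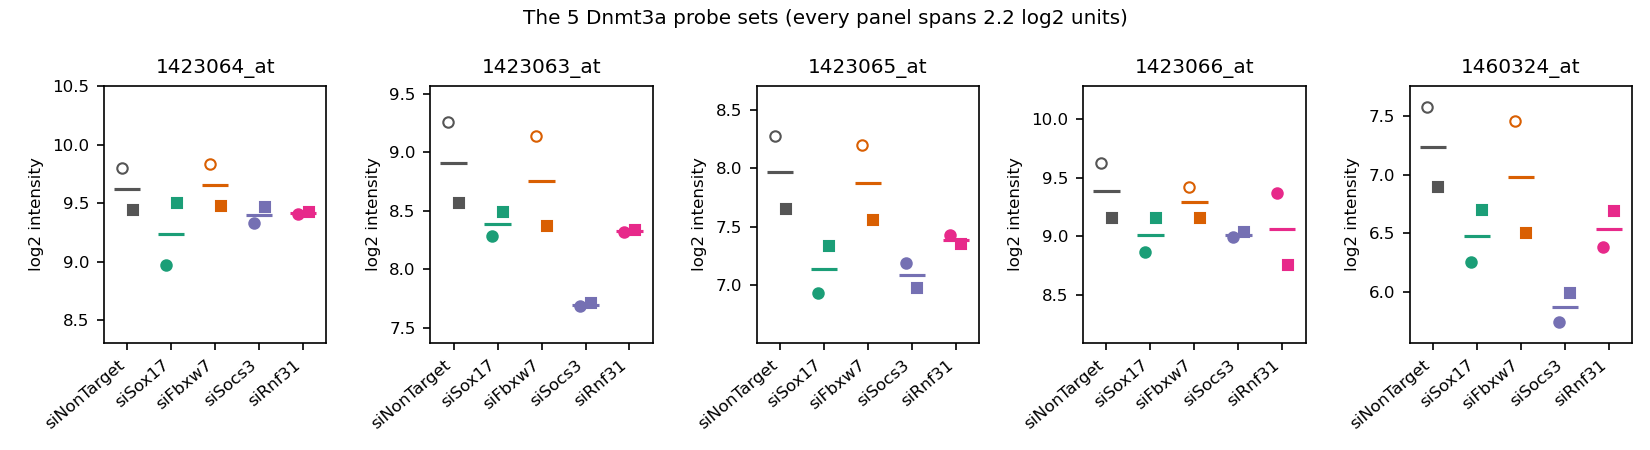
Log2 intensity of the 5 Dnmt3a probe sets on each of the 10 arrays, 1 panel per probe set, with the groups along the horizontal axis. Circles are replicate 1, squares replicate 2, bars group means and open symbols the 2 arrays with a high actin difference. In every panel the open symbols are the 2 highest values, and for 1423063_at and 1460324_at the siSocs3 arrays are the lowest.

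All 5 Dnmt3a probe sets were higher on both arrays of high actin difference than on each of the other 8, where 9.88% of all genes were. For 1423063_at the means were 9.20 on these arrays and 8.22 on the other 8, and for 1460324_at they were 7.52 and 6.39. One of the arrays is a control, so a single control array was left without them. The Dnmt3a difference in siSocs3 was then smaller: -0.87 for 1423063_at, -1.03 for 1460324_at and -0.04 for the brightest probe set. Without siNonTarget replicate 1 alone, the values were also -0.87 and -1.03 and neither passed (limma, adjusted p = 0.170 and 0.218). Neither passed without either siSocs3 array (adjusted p = 0.128 to 0.280), either siSox17 array (0.0684 and 0.0760) or either siRnf31 array (0.0603 and 0.0708), and 1460324_at also failed without siNonTarget replicate 2 (0.0528). With the 2 groups alone neither passed (limma, adjusted p = 0.0663 and 0.0561), and 1460324_at did not pass with the replicate number as a block (0.0629). How much of the Dnmt3a difference goes with RNA quality was not tested further.

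Dnmt1, the maintenance methyltransferase, differed least over the arrays. Its log2 intensity was 11.20 on both siNonTarget arrays, 11.18 and 11.16 in siSocs3, 11.29 and 11.23 in siSox17, 11.15 and 11.25 in siFbxw7, and 11.30 and 11.40 in siRnf31. The whole range was 0.25, and the largest difference from the control was 0.15 ± 0.09 in siRnf31 (limma, adjusted p = 0.778). In siSocs3 the difference was -0.03 ± 0.09 (limma, adjusted p = 0.876). The other probe sets of Dnmt1 spanned 0.21 and 0.31 over the 10 arrays. A p-value past 0.05 does not show that Dnmt1 was equal, but its standard error, 0.09, was smaller than that of every other member.

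Uhrf1, which recruits Dnmt1 to newly replicated DNA, was at 11.79 and 11.71 in siNonTarget, 11.90 and 12.02 in siSocs3, 11.50 and 11.63 in siSox17, 11.88 and 11.62 in siFbxw7, and 11.62 and 11.58 in siRnf31. The siSocs3 arrays were the highest of the 10, by a small margin. The difference from the control was 0.21 ± 0.12 (limma, adjusted p = 0.288), and from siSox17 it was 0.39 ± 0.12 (limma, adjusted p = 0.124). Neither passed. The second probe set, 1415811_at, differed by 0.35 ± 0.18 in siSocs3 and did not pass in the fit of every probe set (limma, adjusted p = 0.323).

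Tet1 and Tet2 are the TET enzymes abundant in embryonic stem cells. Tet2 was at 9.65 and 9.17 in siNonTarget, 10.09 and 10.41 in siSox17, 9.72 and 10.13 in siFbxw7, 10.10 and 9.80 in siSocs3, and 9.77 and 9.24 in siRnf31. The siSox17, siFbxw7 and siSocs3 arrays were all above both control arrays. The differences were 0.84 ± 0.24 in siSox17 (limma, unadjusted p = 0.00631, adjusted p = 0.159), 0.51 ± 0.24 in siFbxw7 (adjusted p = 0.752) and 0.54 ± 0.24 in siSocs3 (adjusted p = 0.188), and none passed. The second Tet2 probe set, 1438781_at, gave 0.85 ± 0.29 in siSox17, 0.68 ± 0.29 in siFbxw7 and 0.40 ± 0.29 in siSocs3, also without a call (limma, adjusted p = 0.288, 0.899 and 0.478). These comparisons share their control arrays.

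Tet1 had 4 probe sets, and its brightest was at 9.62 and 9.01 in siNonTarget, 9.63 and 9.58 in siSox17, 9.61 and 9.09 in siFbxw7, 9.90 and 9.29 in siSocs3, and 9.60 and 8.85 in siRnf31. The groups overlapped in every comparison with the control, and the difference in siSocs3 was 0.28 ± 0.31 (limma, adjusted p = 0.613). The array numbered replicate 1 was above replicate 2 in all 5 groups on 3 of the 4 Tet1 probe sets, by 0.51 on average on the brightest. Of all genes, 3.5% showed that order. Most of the variation of Tet1 thus lay within groups, and a change as small as the standard error of 0.31 was not detectable with these arrays.

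Tet3, the TET enzyme of the oocyte and zygote, lay near the middle of the array's intensities, with a mean at the percentile 49.6 of all probe sets. Its log2 intensity was 5.61 and 5.78 in siNonTarget, 5.46 and 5.43 in siSox17, 5.90 and 5.50 in siFbxw7, 5.31 and 5.16 in siSocs3, and 5.53 and 5.68 in siRnf31. The siSocs3 arrays were the lowest. The difference was -0.46 ± 0.14 and did not pass (limma, unadjusted p = 0.0107, adjusted p = 0.0778), but it passed when either siFbxw7 array was left out of the fit (adjusted p = 0.0359). At this intensity RMA values compress changes, and Tet3 was measured by 1 probe set.

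Counted over the 8 measured genes, 2 rose and 0 fell in siSocs3 at an adjusted p under 0.05, where 9.26% of all 18194 genes were called, 3.59% higher and 5.66% lower. At an unadjusted p under 0.05 the count was 4 of 8, against 26.2% of all genes. The siSocs3 and control arrays did not overlap for 6 of the 8, 4 higher and 2 lower, where 30.6% and 26.7% of all genes did so in these directions. The median difference was 0.25 on the log2 scale, and 0.03 over all genes. In the fit of every probe set, 4 of the 20 were called in siSocs3, against 4.99% of the 45101, and these were both of Dnmt3b and the 2 of Dnmt3a named above. Dnmt3l was not called in that fit (1.54 ± 0.41, limma, adjusted p = 0.0665).

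No member, and none of the 20 probe sets (against 0% of all probe sets), was called in the other siRNA groups in the main fits. A block pairing arrays of different replicate numbers, chosen after seeing the data, called 1 member and 1312 genes in siSox17. In the main fit 0 of 8 passed by limma in siSox17, where 0.0055% of all genes did. There 1 of 8, Tet2, had an unadjusted p under 0.05, as 17.3% of genes had. Without either siFbxw7 array the fit called 234 genes in siSox17 in place of 1, and still none of the members. The siSox17 arrays lay above the controls for 3 members and below for 2, as for 23.3% and 24.9% of all genes. In siFbxw7 0 of 8 passed, as did 0% of all genes, and the only unadjusted p under 0.05 was that of Dnmt3b, at 0.41 ± 0.15 (limma, unadjusted p = 0.0205, adjusted p = 0.752), against 6.45% of genes. The siFbxw7 arrays lay above the controls for 2 members, Dnmt3b and Tet2, and below for 0, as for 16.9% and 16.1% of all genes. In siRnf31 0 of 8 passed, again with 0% of all genes, and 0 of 8 had an unadjusted p under 0.05, against 5.87% of genes. The siRnf31 arrays lay above the controls for 2 members, Dnmt1 and Dnmt3b, and below for 2, Dnmt3a and Uhrf1, as for 16.6% and 18.6% of all genes. The F test for any difference among the 5 groups called 0 of 8 members by limma, against 1.87% of genes, with an unadjusted p under 0.05 for 4 of 8 members and 19.5% of genes, and the smallest adjusted p was that of Dnmt3b (0.0681). Dnmt3b was thus past the threshold against the control and siSox17, but not in the test over all groups.

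**Figure D3:**
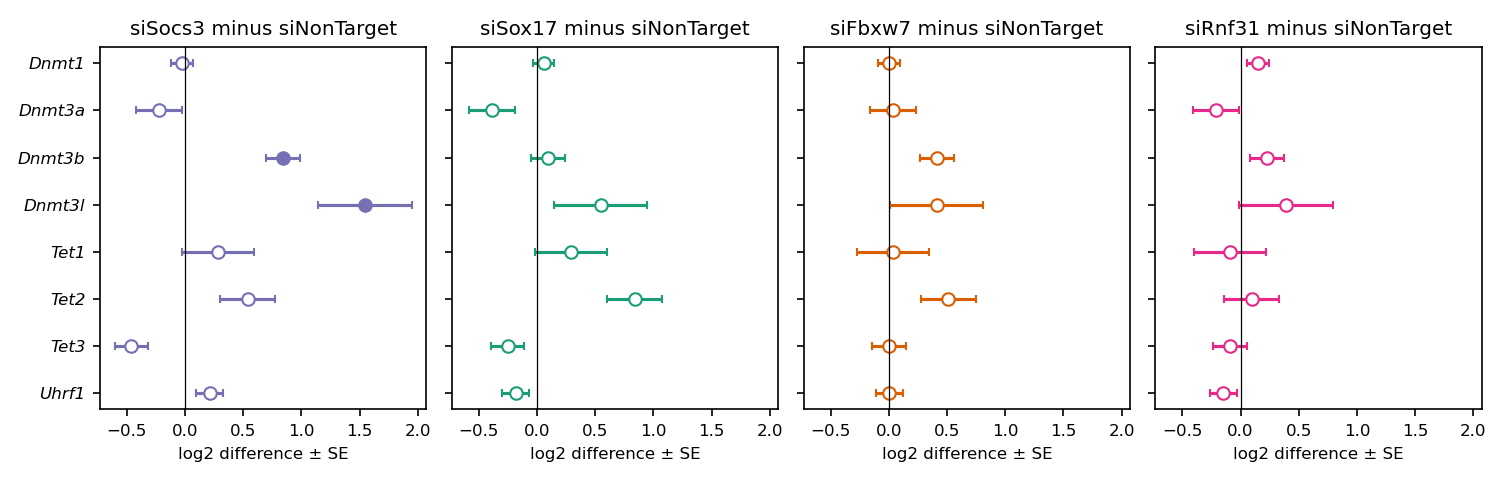
Log2 difference of each of the 8 members from siNonTarget in the 4 groups with a targeting siRNA, with bars of 1 standard error from the limma fit. Filled symbols have an adjusted p under 0.05. Only Dnmt3b (0.84) and Dnmt3l (1.54) in siSocs3 are filled.

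Partners of these enzymes were read from lists of 156 gene names in 9 groups. Among them, Oct6 is an older name of Pou3f1, so that gene was listed under both names and measured as Pou3f1. All counts are for siSocs3 against siNonTarget, because none of the list genes passed in the other 3 comparisons with the control. Of all genes, 9.26% were called there, 3.59% higher and 5.66% lower. Medians are for the same comparison unless another group is named. Among partners of maintenance and heterochromatin, 1 of 19 measured genes fell and none rose: Smchd1, a chromatin protein of the inactive X, fell by 0.49 ± 0.12 (limma, adjusted p = 0.0426). This call was lost without the arrays of high actin difference and without any 1 array other than those of siFbxw7. The median of the list was 0.07. None of 8 methyl-CpG readers passed by limma. The smallest p were those of Mbd1 (0.44 ± 0.15, adjusted p = 0.112) and of Zbtb33, the Kaiso protein (-0.30 ± 0.12, adjusted p = 0.150), and the list median was -0.08.

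In the path that completes demethylation, 2 of 18 base excision repair genes and TET partners passed, near the 9.26% of all genes. Both are uracil glycosylases. Ung, at 9.60 and 9.58 in siNonTarget and 10.13 and 10.12 in siSocs3, rose by 0.54 ± 0.11 (limma, adjusted p = 0.0199). Smug1, at 9.13 and 8.92 against 8.17 and 8.06, fell by 0.91 ± 0.16 (limma, adjusted p = 0.0129). The list median was 0.00, and the count was 1 without the arrays of high actin difference. Among 15 genes of methyl donor and 2-oxoglutarate metabolism, Bhmt, which remethylates homocysteine from betaine, rose by 2.75 ± 0.41 (limma, adjusted p = 0.00845), and Idh2, the mitochondrial isocitrate dehydrogenase, fell by 0.52 ± 0.14 (limma, adjusted p = 0.0478). This list too had 1 call without those arrays and a median of 0.06.

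Germline genes whose promoters are normally silenced by DNA methylation gave 5 rises and no falls among 17 measured. The shares of all genes were 3.59% and 5.66%. Tex19.1, which acts in germ cells and placenta, was at 8.55 and 8.35 in siNonTarget and 10.17 and 9.89 in siSocs3, a rise of 1.58 ± 0.13 (limma, adjusted p = 0.00215). Dazl, an RNA-binding protein of germ cells, rose by 1.17 ± 0.22 (limma, adjusted p = 0.0157) and Stk31 by 0.96 ± 0.16 (0.0102). Tex101 rose by 0.91 ± 0.16 (0.0128) at a low intensity, 4.30 and 4.49 in siNonTarget and 5.48 and 5.13 in siSocs3. Hormad1, a meiotic axis protein, was the remaining call (0.98 ± 0.24, 0.0399). The list median was 0.17, against 0.03 for all genes, and the other 12 did not pass. It was no lower in siSox17, at 0.18, and was 0.06 in siFbxw7 and -0.01 in siRnf31, without calls. The count fell to 4 when the arrays of high actin difference were left out, to 2 when siNonTarget replicate 1 was, to 1 with siSocs3 replicate 1 out and to 3 with siSocs3 replicate 2 out. Genes of this list were chosen as targets of these enzymes, and their methylation was not measured here.

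Among 18 imprinted genes, 1 rose and 4 fell, against 3.59% and 5.66% of all genes, and the list median was -0.32. It was -0.12 in siSox17, -0.23 in siFbxw7 and -0.06 in siRnf31, without calls. Phlda2, a maternally expressed growth regulator of the placenta, was at 8.56 and 8.75 in siNonTarget and 10.09 and 10.01 in siSocs3, a rise of 1.39 ± 0.19 (limma, adjusted p = 0.00601). Grb10, an adaptor of growth factor receptors, fell by 1.04 ± 0.16 (limma, adjusted p = 0.00900), Nnat by 1.29 ± 0.23 (0.0147), Mest by 1.19 ± 0.29 (0.0372) and Ndn by 0.59 ± 0.15 (0.0426). The 5 calls became 3 when the arrays of high actin difference were left out, 0 with siSocs3 replicate 1 out, 1 with siNonTarget replicate 1 out, and 3 with siNonTarget replicate 2, siSocs3 replicate 2 or either siSox17 array out. Imprinted loci gave no allele information on these arrays.

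Lists of cell state were read beside the enzymes. Of 24 replication and S phase genes, with which Dnmt1 and Uhrf1 vary in many cells, 1 rose, Orc1 of the origin recognition complex, by 0.71 ± 0.11 (limma, adjusted p = 0.00872), and the list median was 0.12. Of 12 naive pluripotency genes, 8 rose and none fell, against 3.59% and 5.66% of all genes, with a median of 1.08. The list median was also positive in siSox17 (0.84), siFbxw7 (0.47) and siRnf31 (0.23), without calls. Esrrb rose by 1.58 ± 0.23 (limma, adjusted p = 0.00811), Nanog by 1.54 ± 0.22 (0.00796), Prdm14, a repressor of de novo methylation in embryonic stem cells, by 1.28 ± 0.14 (0.00370) and Klf2 by 1.09 ± 0.16 (0.00773). It dropped to 7 calls with the arrays of high actin difference left out, to 4 with siNonTarget replicate 1 out and to 1 with siSocs3 replicate 1 out. Of 9 formative and primed genes, Sfrp2, a secreted Wnt inhibitor, fell by 2.42 ± 0.55 (limma, adjusted p = 0.0293), none rose and the median was -0.11.

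**Figure D4:**
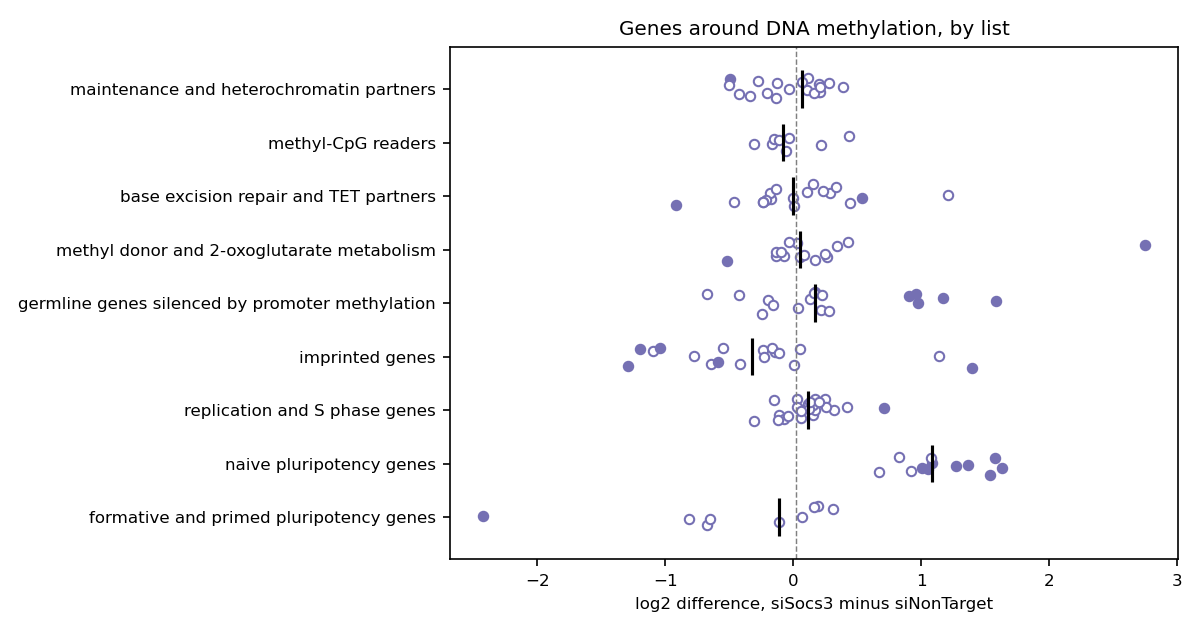
Log2 difference between siSocs3 and siNonTarget for each measured gene of the 9 partner and cell state lists, 1 row per list. Filled symbols have an adjusted p under 0.05, the short black line is the list median and the dashed line the median of all genes (0.03). The naive pluripotency list has the highest median (1.08) and the imprinted list the lowest (-0.32).

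The summed intensities of markers of other cells were lower in siSocs3 than in the control, and some sums were lower in other groups too. A sum is weighted to its brightest markers, and single markers were not compared between groups. The summed intensity of 10 neural ectoderm markers was 1956 to 2572 in siNonTarget and 886 to 1118 in siSocs3, with Neurog2 and Dcx under the array median everywhere. For 10 extraembryonic endoderm markers it was 3640 to 3882 in siNonTarget, 2744 to 3150 in siSocs3 and 4815 to 7063 in siFbxw7, with Afp under the median everywhere. For 10 fibroblast markers, where Thy1, Postn, Lum and Col6a1 were under the median everywhere, it was 1645 to 2071 in siNonTarget and 1261 to 1438 in siSocs3. The fibroblast sum was also below the control in siSox17 (1256 to 1401) and siFbxw7 (1267 to 1603), but not in siRnf31 (1307 to 2190). The endoderm sum was also below it in siRnf31 (2829 to 2973), but not in siSox17 (2955 to 3964). The neural sum was below it in siSox17 (1586 to 1735) and siRnf31 (1594 to 1852), but not in siFbxw7 (1510 to 2157). The part of a different mix of cells in the Dnmt3b, Dnmt3l and Dnmt3a values was not tested.

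The genes whose values followed Dnmt3b most closely over the 10 arrays, among 8900 genes above the median intensity, clone names left out, were Tbrg4 (Pearson r = 0.951), Ctsc (0.937), Las1l (0.936), Zfp982 (0.935) and Nepro (0.929). In siSocs3 they differed from the control by 0.43, 1.13, 0.57, 0.40 and 0.68. Tbrg4 and Zfp982 did not pass (limma, adjusted p = 0.0574 and 0.0862), and the others did. The genes were picked for following Dnmt3b on these same arrays, so the direction of their differences is not a separate result. Among the members, Dnmt3l was the one most like Dnmt3b (r = 0.843), and Tet3 ran opposite to both (r = -0.665 with Dnmt3b and -0.812 with Dnmt3l). These correlations describe 10 arrays in 5 groups that share a normalization, and the siSocs3 arrays lie at one end of each.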

How the data were processed

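Each of the 10 samples was hybridised to 1 array after 5 ng of total RNA was amplified and biotin-labelled, per the labels' protocols. The submitters' processing notes name RMA for the deposited intensities, and its version and later scaling were not stated. Since the intensities reached 31606.3, from 5.05, and each array's median lay between 46.39 and 47.95, log2 was taken. RMA makes array distributions alike, which hides a shift shared by most genes. Of the probe sets, 34958 had 1 gene symbol, 932 several and 9211 none here. The gene IDs of 34754 probe sets matched RefSeq of GRCm38.p6, and 0 symbols changed. The probe set with the highest mean stood for a gene (18194 genes). One model over the 5 groups was fitted with limma 3.58.1 in R 4.3.3 (lmFit, eBayes, 5 residual degrees of freedom), two-sided, with Benjamini-Hochberg adjustment over all genes at 0.05, and again over all probe sets; code was tested on simulated data. Groups of 2 allow an exact permutation p of 0.333 at best. Other settings were a replicate block, the 2 groups alone, normalization, filters on dim genes, the offset, the prior, the probe set rule, and leaving out arrays. Members and lists were chosen with earlier results of these data known. From each list at most 4 called genes with the smallest p were named, or 2 uncalled ones; Hormad1 and Ndn were named after their values were seen. Figures used matplotlib 3.10.9.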

Additional observations from a re-analysis of the deposited data

Results flagged for a closer look

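The Dnmt3b difference between the siSocs3 and siSox17 arrays was singled out because it is a direct test between targeting siRNAs in which a member passed. Dnmt3b was higher in siSocs3 by 0.75 on the log2 scale (limma, adjusted p = 0.0345), with both siSocs3 arrays above both siSox17 arrays, and the adjusted p ranged from 0.0146 to 0.277 over 21 alternatives.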

How the results depend on the processing

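Of 1746 member values recomputed under up to 21 alternatives, 1677 kept their status, most of them as uncalled, 54 lost a call and 15 gained one. In siSocs3 against siNonTarget, Dnmt3b stayed called in 19 of 21 alternatives and Dnmt3l in 9. Against siSox17, Dnmt3b stayed called in 15 of 21. Of 19 alternatives for probe sets, Dnmt3b 1449052_a_at stayed called in 15 and 1418351_a_at in 12. Dnmt3a 1423063_at stayed called in 9 and 1460324_at in 6. No called value changed sign, and 59 uncalled ones did. In siSocs3 against siNonTarget the count of called members was 2, and 1 with log2(value + 16), the trended robust prior, the mean of probe sets or every probe set alone; it was 0 to 3 when single arrays were left out, with 3 without either siFbxw7 array, where Tet3 passed too. With the replicate block it was 2, and 1517 genes were called in place of 1684. The count of genes was 858 without the 2 arrays of high actin difference, 313 and 1116 with siNonTarget replicate 1 or 2 left out, and 63 and 638 with siSocs3 replicate 1 or 2 left out. Over the settings with 1 value per gene, other counts of genes ranged from 77 to 881 around 474 in siSocs3 against siSox17, from 81 to 898 around 638 against siFbxw7, from 22 to 677 around 387 against siRnf31, from 0 to 254 around 1 in siSox17 against siNonTarget, and from 1 to 836 around 340 in the F test. Among member probe sets the count was 4, and 2 after quantile normalization or with log2(value + 16), and 0 to 5 when single arrays were left out. With the replicate block it was also 4, but Dnmt3a 1460324_at was no longer among them, and with the 2 groups alone it was 3, without either Dnmt3a probe set. In siSocs3 against siSox17 the count of members was 1, and 0 with the replicate block or every probe set alone, 2 without the arrays of high actin difference or with the 2 groups alone, and 0 to 1 when single arrays were left out. In siSocs3 against siFbxw7 it was 0, and 0 to 3 when single arrays were left out. In siSocs3 against siRnf31 it was 0, and 1 with the mean of probe sets or the 2 groups alone, 2 without the arrays of high actin difference, and 0 to 2 when single arrays were left out. The F test called 0, and 1 with the trended robust prior, 2 without the arrays of high actin difference, and 0 to 2 when single arrays were left out. The causes of these changes were not tested. Deviations of same-numbered arrays correlated at -0.26 to 0.42 between groups, the highest between siNonTarget and siFbxw7. This does not settle whether arrays of the same number were prepared together, and the main fit had no replicate block. A block with crossed numbers, chosen after seeing the data, called 1 member and 1312 genes in siSox17 against siNonTarget, 0 and 807 in siSocs3 against siFbxw7, and 0 and 1 in siFbxw7 against siRnf31. The list counts without the arrays of high actin difference were also added after seeing the data. Without the dimmest 50% of genes Tet3 was not tested. A fit that left out 1 array assumed that the lone array varies like the other groups. Precision is limited by having 2 arrays a group.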
